A study of Mus musculus with 6 samples.

Results

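Integrin subunits of keratinocytes, proteins of the hemidesmosome and chains of laminin-332 were followed at the transcript level in mouse skin biopsies taken 1 day and 4 days after wounding and in intact skin. The members were fixed by gene symbol: Itga2, Itga3, Itga5, Itga6, Itgb1, Itgb4, Itgb6, Dst, Lama3 and Lamb3. All 10 were found among the 19938 genes that the array annotation gives by a single symbol, each with 1 probe set, so no choice between probe sets was needed. The values are log2 intensities made by RMA, a procedure that corrects background, equalises the arrays and summarises the probes of a gene. Probe sets differ in brightness for reasons of design, so levels are compared between arrays and never between genes. Where sizes of change are set side by side, they are those read by 1 probe set per gene.

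The wounded animals and the source of intact skin were male BALB/c mice, an inbred strain, 5 to 6 weeks old. Day 1 wounds, day 4 wounds and intact skin had 2 arrays each. Wounds were 4 mm punches through the whole skin down to the fascia, 2 per mouse, and the biopsy was an 8 mm punch that took the wound with its margin. By these punch sizes the wound, when made, had 25% of the area of the biopsy punch. The labels describe the replicates as biological without saying whether an array held 1 animal, several, or both wounds of a mouse. The SDs thus give the spread between these samples, which need not be single animals. The p-values judge differences against a spread between such samples estimated over all 3 groups. Over all genes the 2 arrays of a group correlated with r = 0.9891 on day 1, 0.9861 on day 4 and 0.9967 in intact skin, and array medians lay between 6.89 and 6.93. Precision is limited by having 2 arrays in a group. Hair follicle markers differed between the replicates of each wound day, and their values are given with the marker lists.

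Integrins are receptors made of an alpha and a beta subunit that hold cells to the extracellular matrix and signal from it. In resting epidermis, basal keratinocytes sit on laminin-332 through the α6β4 integrin of the hemidesmosome, an anchoring complex tied to keratin filaments by the plakins plectin and BPAG1, and through α3β1. At a wound edge, keratinocytes leave these anchors and use receptors for fibronectin, tenascin and collagen such as α5β1, αvβ6 and α2β1. They lay down laminin-332 as they crawl under the clot. Several of these subunits are also made outside the epidermis: Itgb1 by nearly every cell type, Itga5 by fibroblasts, endothelium and leukocytes, Itga6 by endothelium and Itgb4 by Schwann cells. A biopsy mixes all of them, and more cells of a type cannot be told apart from more RNA per cell.

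All 10 members were higher in day 1 wounds than in intact skin, and 9 of the 10 were higher in day 4 wounds than in intact skin (limma, Benjamini-Hochberg adjusted p under 0.05 over all genes). Across all genes, 14.7% were called higher on day 1 and 14.8% on day 4. The members were chosen with earlier results of these data known. The shares of all genes are thus a background to the counts and no test of the set. No member was called lower, where 14.6% of all genes were on day 1 and 12.1% on day 4. Itga3 was the member not called on day 4. The median log2 change of the members was 0.74 on day 1, against -0.04 for all genes, and 0.52 on day 4, against -0.03 for all genes. Both days share the same intact arrays, so they are not independent comparisons. The moderated F test over the 3 groups called all 10 members, where it called 30.7% of all genes. On each of the 10 panels of the plot of members by array, both day 1 arrays lay above both intact arrays, an order that 29% of all genes showed. On day 4 this held for 9 of 10 members and 30% of all genes. The opposite order, both wound arrays below both intact arrays, was shown by 0 members on either day, against 38.2% of all genes on day 1 and 36% on day 4.

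**Figure D1:**
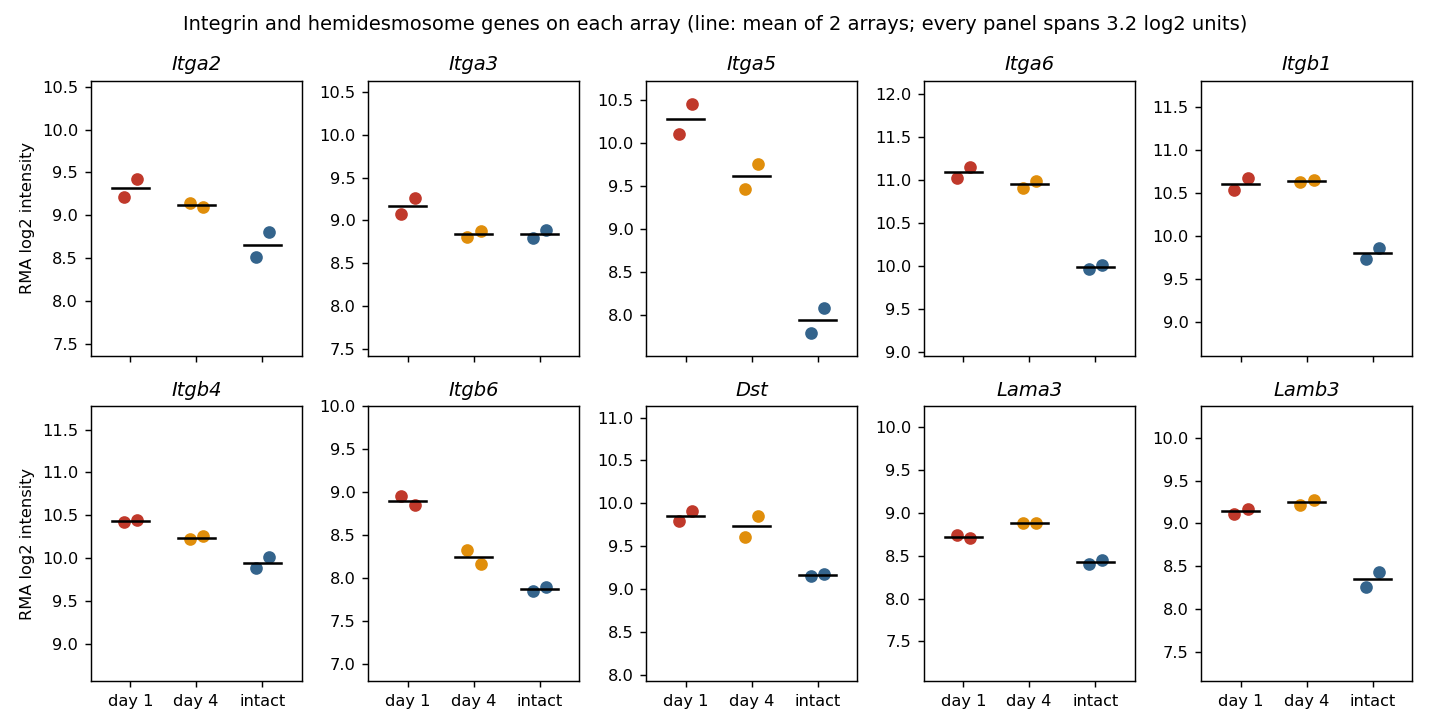
RMA log2 intensity (vertical axes, all of equal span) of each member on the 2 arrays of day 1 wounds, day 4 wounds and intact skin. Points are arrays and black lines are group means. Itga5 shows the widest gap, 10.29 on day 1 against 7.94 in intact skin, and Itga3 is the member whose day 4 and intact arrays overlap.

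The fibronectin receptor subunit Itga5, which pairs with β1, had the largest change of the members on both days. Its log2 intensity was 10.11 and 10.46 in day 1 wounds, against 7.79 and 8.08 in intact skin. The day 1 mean of 10.29 ± 0.25 was 5.1-fold above the intact mean of 7.94 ± 0.21 (SD, n = 2 each; log2 change 2.35, SE 0.17, adjusted p = 2.69e-04 by limma). On day 4 the arrays read 9.47 and 9.76, a mean of 9.62 ± 0.21 that was 3.2-fold above intact skin (log2 change 1.68, adjusted p = 0.00118 by limma). No wound array overlapped an intact array. Day 4 arrays also lay below day 1 arrays, by a log2 change of -0.67 (95% interval -1.07 to -0.27), which did not pass the adjusted threshold (limma adjusted p = 0.101).

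Its partner Itgb1, the beta subunit shared by the collagen, fibronectin and laminin receptors of this set, was higher on both days by nearly the same amount. Itgb1 read 10.54 and 10.68 in day 1 wounds and 10.63 and 10.65 in day 4 wounds, against 9.73 and 9.86 in intact skin. The change was 1.76-fold on day 1 (log2 0.82, SE 0.09, limma adjusted p = 0.00109) and 1.8-fold on day 4 (log2 0.85, SE 0.09, limma adjusted p = 0.00135). Day 4 and day 1 arrays overlapped, and the interval of their difference ran from -0.18 to 0.24 on the log2 scale. The probe sets of the 2 fibronectin receptor genes thus changed by unequal amounts. Within each array, the log2 difference Itga5 minus Itgb1 stood 1.43 and 1.64 above its intact mean on the day 1 arrays and 0.70 and 0.97 above it on the day 4 arrays, and the intact arrays lay at -0.08 and 0.08.

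Promoter windows are printed here for this receptor pair, whose probe sets moved together against intact skin but by different amounts. That of Itgb6, the member that limma called between the days, is printed with them. The windows are as RefSeq gives them on GRCm38.p6, from 250 bases before to 50 after the annotated start. They lie at chr15:103366742-103367041 on the minus strand (Itga5), chr8:128685404-128685703 on the plus strand (Itgb1) and chr2:60722554-60722853 on the minus strand (Itgb6, the upstream one of its 2 annotated starts). Capitals mark the GC box letters GGGCGG on either strand.
Itga5: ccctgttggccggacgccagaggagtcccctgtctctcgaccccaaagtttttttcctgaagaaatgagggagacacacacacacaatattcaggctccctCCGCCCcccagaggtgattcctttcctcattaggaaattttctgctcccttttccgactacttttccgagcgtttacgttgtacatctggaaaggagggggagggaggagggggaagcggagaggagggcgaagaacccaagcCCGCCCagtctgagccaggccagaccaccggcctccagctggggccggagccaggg
Itgb1: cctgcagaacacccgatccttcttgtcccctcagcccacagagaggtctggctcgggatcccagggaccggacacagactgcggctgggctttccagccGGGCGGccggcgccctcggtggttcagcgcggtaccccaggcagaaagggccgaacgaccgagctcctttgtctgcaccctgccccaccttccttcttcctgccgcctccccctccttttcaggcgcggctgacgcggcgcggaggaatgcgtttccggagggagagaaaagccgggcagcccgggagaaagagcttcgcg
Itgb6: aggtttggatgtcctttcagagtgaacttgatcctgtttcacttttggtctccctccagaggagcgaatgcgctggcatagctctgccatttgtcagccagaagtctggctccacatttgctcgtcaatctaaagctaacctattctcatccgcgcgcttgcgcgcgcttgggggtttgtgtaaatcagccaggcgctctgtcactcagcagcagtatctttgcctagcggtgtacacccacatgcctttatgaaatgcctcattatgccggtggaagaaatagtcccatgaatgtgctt
The Itga5 window holds 2 such matches, the Itgb1 window 1 and the Itgb6 window 0. GC content was 58.7% for Itga5, 67.3% for Itgb1 and 50.3% for Itgb6.

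Promoter windows were given for 7 of the 10 members, 11 windows in all, and 7 motifs were searched on both strands. Shares are by gene, counting a match in any of its windows. All 27025 genes had 32851 windows, so the members had more windows per gene and the bases are unlike. GGGCGG stood in a window of 5 of the 7 genes, against 38.2% of all genes and 35.7% of all windows. The NF-kB motif, GGG and CC with any 5 bases between them, stood in 4 of 7 (53.5% of all genes), CCAAT in 2 (41.1%) and the TEAD letters GGAATG in 2 (16.6%). TGANTCA, the AP-1 letters, stood in 1, the downstream window of Itga3 (8.97% of all genes). The TATA letters TATAAA (15.7% of all genes) and the E-box CACGTG (8.09%) stood in none. Some NF-kB matches overlap a GC box in Dst, Itga2 and Itga3, and the 2 Lamb3 windows overlap each other. Neither Itgb6 window held any of the 7 motifs. These are matches of letters in short windows and not binding sites.

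Itgb6 encodes the epithelial β6 subunit that pairs with αv to bind fibronectin, tenascin and latent TGF-β. It was the member that limma called between the days. It read 8.95 and 8.85 in day 1 wounds and 8.33 and 8.16 in day 4 wounds, against 7.85 and 7.89 in intact skin. The 3 groups did not overlap. Day 1 wounds were 2.04-fold above intact skin (log2 change 1.03, SE 0.09, limma adjusted p = 5.25e-04) and day 4 wounds 1.3-fold above it (log2 change 0.38, SE 0.09, limma adjusted p = 0.0240). Day 4 wounds, at 8.25 ± 0.12, were 1.57-fold below day 1 wounds, at 8.90 ± 0.07 (SD, n = 2 each; log2 change -0.66, SE 0.09, limma adjusted p = 0.0303), a direction in which 1.14% of all genes were called. This last call did not survive the removal of any single array, with adjusted p between 0.0738 and 0.142 and log2 changes between -0.74 and -0.57. The day 4 call against intact skin was lost without day 4 replicate 1 (adjusted p = 0.0896), intact replicate 1 (0.125) or intact replicate 2 (0.0906). The partner Itgav, the αv subunit of many cell types, had a log2 change of 0.23 on day 1 (limma adjusted p = 0.0637) and of 0.30 on day 4 (limma adjusted p = 0.0293). Within each array the difference Itgb6 minus Itgav lay 0.89 and 0.71 above its intact mean on day 1 and 0.15 and 0.00 above it on day 4.

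Itga6 had the largest changes of the laminin receptor subunits among the 10 members. The α6 subunit pairs with β4 in hemidesmosomes and with β1 elsewhere. Itga6 read 11.03 and 11.15 in day 1 wounds and 10.91 and 10.99 in day 4 wounds, against 9.96 and 10.01 in intact skin. Day 1 wounds, at 11.09 ± 0.08 (SD, n = 2), were 2.15-fold above intact skin (log2 change 1.11, SE 0.08, limma adjusted p = 2.93e-04). Day 4 wounds stood at 10.95 ± 0.06 and intact skin at 9.99 ± 0.04 (SD, n = 2 each), a log2 change of 0.97 and a 1.95-fold difference (SE 0.08, limma adjusted p = 6.96e-04). The replicates lay close together in every group, and no wound array overlapped an intact array. Itgb4, the β4 subunit with the long cytoplasmic tail that binds plectin, changed less. It read 10.42 and 10.45 in day 1 wounds and 10.22 and 10.26 in day 4 wounds, against 9.89 and 10.01 in intact skin. Its log2 change was 0.49 on day 1 (SE 0.08, limma adjusted p = 0.00493) and 0.29 on day 4 (SE 0.08, limma adjusted p = 0.0355). For Itgb4 the day 4 call was lost under each of the 6 removals of an array, with adjusted p between 0.0576 and 0.179. Within each array Itga6 minus Itgb4 lay 0.58 and 0.67 above its intact mean on day 1 and 0.66 and 0.70 above it on day 4. The probe sets of the 2 hemidesmosome integrin subunits thus changed unequally on all 4 wound arrays. Whether their transcripts changed as unequally was not tested.

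Itga3, the α3 subunit of the other laminin-332 receptor, was called higher on day 1 and not on day 4. Its arrays read 9.08 and 9.26 in day 1 wounds, against 8.79 and 8.89 in intact skin (1.26-fold, log2 change 0.33, SE 0.09, limma adjusted p = 0.0377). On day 4 they read 8.81 and 8.88, inside the range of the intact arrays, with a log2 change of 0.01 and a 95% interval from -0.21 to 0.22. The sign of this near-zero day 4 value turned under quantile normalization, cyclic loess and median centring. Day 4 arrays lay below day 1 arrays by -0.33 on the log2 scale (limma adjusted p = 0.131), so a fall between the days was not established by the adjusted test. The day 1 call was lost without any 1 array other than day 1 replicate 1, with adjusted p up to 0.183. The difference Itga3 minus Itgb1 lay 0.51 and 0.47 below its intact mean on day 1 and 0.87 and 0.82 below it on day 4.

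Itga2, the α2 subunit of the collagen receptor α2β1, read 9.21 and 9.42 in day 1 wounds and 9.14 and 9.10 in day 4 wounds, against 8.51 and 8.80 in intact skin. It was 1.58-fold higher on day 1 (log2 change 0.66, SE 0.12, limma adjusted p = 0.00862) and 1.38-fold higher on day 4 (log2 change 0.47, SE 0.12, limma adjusted p = 0.0336). No wound array overlapped an intact array. The day 1 call was lost without day 1 replicate 2 (adjusted p = 0.0588) or intact replicate 1 (0.0506). On day 4 it was lost without either day 4 array (0.113 and 0.108) or intact replicate 1 (0.163). Platelets also carry α2β1, and of 4 matched platelet markers the chemokine genes Pf4 and Ppbp were higher on day 1 by log2 changes of 2.56 and 4.79. The lineage-defining integrin Itga2b changed by -0.01 and the receptor gene Gp9 by -0.06, neither called.

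Dst, whose epidermal product BPAG1 links the hemidesmosome to keratin filaments, was higher on both days. The gene also gives long products in nerve and muscle, and its single probe set does not separate them here. Dst read 9.79 and 9.91 in day 1 wounds and 9.61 and 9.85 in day 4 wounds, against 9.15 and 9.18 in intact skin. The day 1 mean of 9.85 ± 0.08 was 1.61-fold above intact skin (log2 change 0.69, SE 0.10, limma adjusted p = 0.00378). The day 4 mean of 9.73 ± 0.17 was 1.48-fold above the intact mean of 9.17 ± 0.02 (SD, n = 2 each; log2 change 0.57, SE 0.10, limma adjusted p = 0.00956). The day 4 arrays lay further apart than those of the other groups and overlapped the day 1 arrays. The day 4 call was lost without intact replicate 1 (adjusted p = 0.0678) or intact replicate 2 (0.0552).

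The laminin-332 chain genes Lamb3 and Lama3 were higher on both days, with day 4 means above day 1 means. Lamb3, the gene of the β3 chain, read 9.11 and 9.17 in day 1 wounds and 9.22 and 9.27 in day 4 wounds, against 8.26 and 8.44 in intact skin. It was 1.73-fold higher on day 1 (log2 change 0.79, SE 0.09, limma adjusted p = 0.00124) and 1.86-fold higher on day 4 (log2 change 0.90, SE 0.09, limma adjusted p = 0.00115). The α3 chain gene Lama3 read 8.74 and 8.70 in day 1 wounds and 8.88 and 8.88 in day 4 wounds, against 8.40 and 8.45 in intact skin. Its log2 change was 0.30 on day 1 (SE 0.07, limma adjusted p = 0.0224) and 0.46 on day 4 (SE 0.07, limma adjusted p = 0.00548). For both genes each day 4 array exceeded each day 1 array, an order that 25.6% of all genes showed, and neither difference passed (limma adjusted p = 0.579 for Lamb3 and 0.286 for Lama3). The day 1 call of Lama3 was lost without either day 1 array (adjusted p = 0.0867 and 0.0740) or either intact array (0.118 and 0.0756). Lamb3 minus Lama3 within an array lay 0.45 and 0.55 above its intact mean on day 1 and 0.42 and 0.47 above it on day 4.

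**Figure D2:**
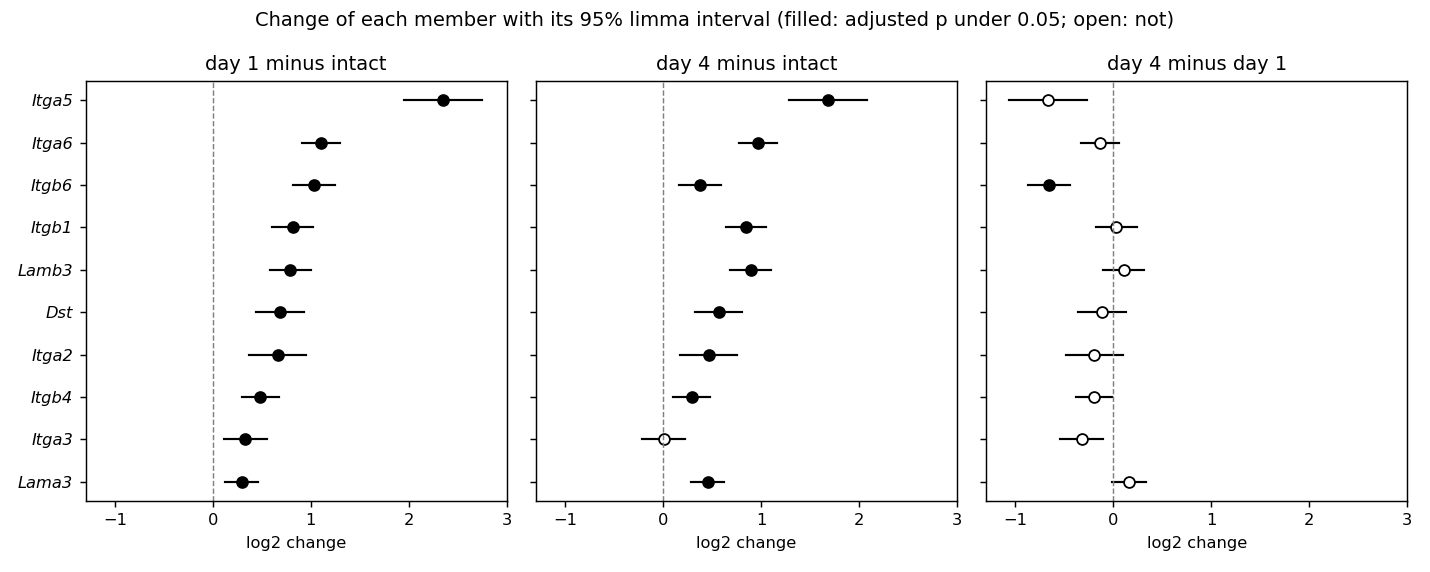
Log2 change of each member (horizontal axes) with its 95% limma interval for day 1 minus intact, day 4 minus intact and day 4 minus day 1. Filled points passed an adjusted p of 0.05 and open ones did not: 10 are filled on day 1, 9 on day 4, and Itgb6 is the filled one between the days.

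Between the days, limma called 1 of the 10 members lower on day 4 (Itgb6) and 0 higher, where 1.09% of all genes were called higher. At an unadjusted p under 0.05, 4 of the 10 members differed, against 3765 of all 19938 genes. The median log2 change of the members from day 1 was -0.17, against 0.01 for all genes. Both day 4 arrays lay below both day 1 arrays for 6 members (22% of all genes) and above them for the laminin genes Lamb3 and Lama3, while Itgb1 and Dst overlapped.

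**Figure D3:**
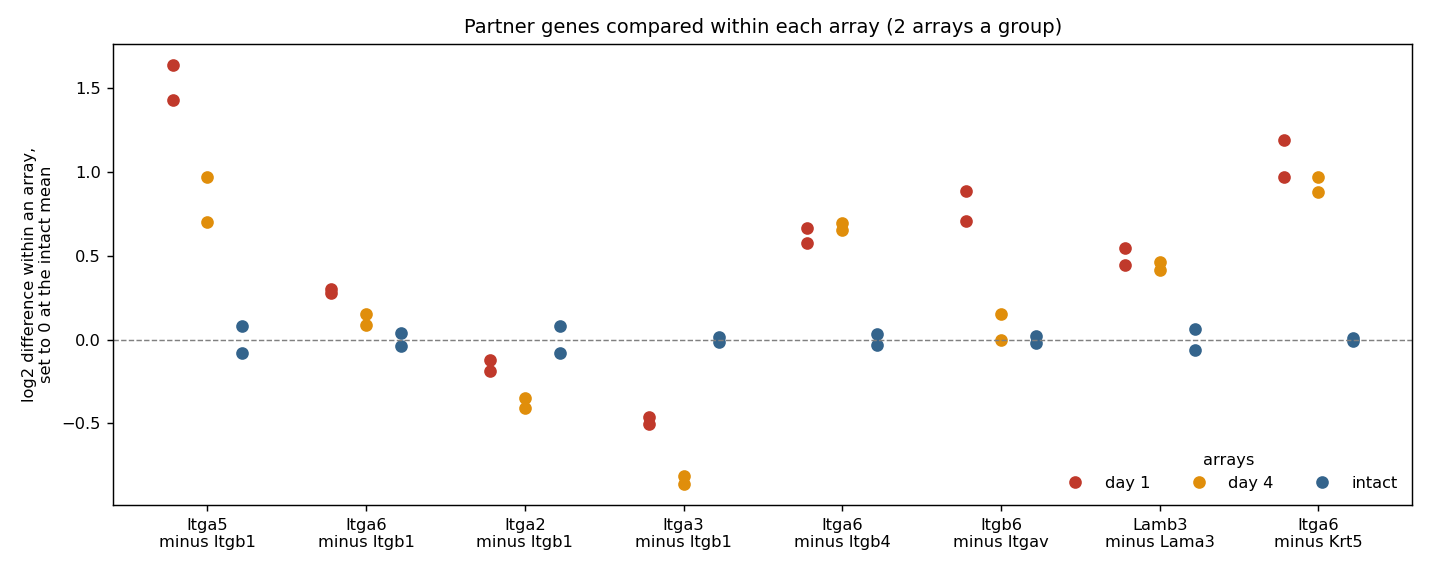
Log2 difference between pairs of genes within an array (vertical axis), set to 0 at the mean of the intact arrays, with 2 points per group. Itga5 minus Itgb1 and Itgb6 minus Itgav are higher on day 1 than on day 4, Itga6 minus Itgb4 is about as high on both days, and Itga3 minus Itgb1 lies below 0 on all 4 wound arrays.

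Further parts of the hemidesmosome and its anchors were examined as a list. Counts in this list and those below stand beside the shares of all genes. These were 14.7% higher and 14.6% lower on day 1, and 14.8% higher and 12.1% lower on day 4. Of 5 listed partners 4 were matched, and 2 of these were higher on each day with a list median of 0.25 on day 1 and 0.25 on day 4. Plec, which encodes plectin, was 1.37-fold higher on day 1 (log2 change 0.46, limma adjusted p = 0.0148) and 1.34-fold on day 4. Col17a1, the transmembrane collagen of the hemidesmosome, had log2 changes of 0.36 on day 1 and 0.28 on day 4 (limma adjusted p = 0.0135 and 0.0345). The tetraspanin Cd151, a partner of α3 and α6, changed by 0.14 and -0.01, and Col7a1, the anchoring fibril collagen, by -0.03 and 0.21, with no call on either day.

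Among 11 basement membrane genes 3 were higher and 2 lower on day 1 (median 0.31), and 6 were higher and 1 lower on day 4 (median 0.48). The laminin chain genes split. Lama4, a chain of vascular basement membranes, was 1.72-fold higher on day 1 and 1.89-fold higher on day 4, and Lamc1, the widely shared γ1 chain, was 1.4-fold and 1.47-fold higher. Lama5, the α chain of laminin-511 in resting epidermal basement membrane, had log2 changes of -0.63 on day 1 and -0.77 on day 4 (limma adjusted p = 0.00364 and 0.00231), opposite to Lama3 and Lamb3 in the same biopsies. Lamb1 had a log2 change of -0.51 on day 1 (limma adjusted p = 0.0137). The nidogen gene Nid2, a linker of laminin and collagen IV networks, was 1.72-fold higher on day 4 (limma adjusted p = 0.00293). Lama2 was 1.39-fold higher on day 4 than in intact skin (limma adjusted p = 0.00431). It was also the list's call between the days, with a log2 change of 0.53 on day 4 against day 1 (limma adjusted p = 0.0291).

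Of 10 other integrin subunits outside the leukocyte set, 4 were higher and 2 lower on day 1 (median 0.12), and 5 were higher and 0 lower on day 4 (median 0.39). Itga7, the laminin receptor subunit of muscle, was 2.73-fold higher on day 1 (log2 change 1.45, limma adjusted p = 0.00197). Itga9, a tenascin receptor subunit also made by keratinocytes, was 1.54-fold higher on day 1 and 1.56-fold on day 4. Itgb3 was 1.28-fold and 1.48-fold higher, and Itga1 was 1.59-fold higher on day 1 (limma adjusted p = 0.0263). Itga11, a collagen receptor subunit of fibroblasts, had a log2 change of -0.60 on day 1 against intact skin (limma adjusted p = 0.00220) and of 0.80 on day 4 against day 1 (limma adjusted p = 0.0141), the list's 1 call between the days. Itga8, a subunit of smooth muscle and other mesenchymal cells, was the other one called lower on day 1 (log2 change -0.55, limma adjusted p = 0.0411). Itgb5 and Itgb8, further partners of αv, had log2 changes of 0.01 and -0.18 on day 1 and were called higher on day 4 at 0.35 and 0.44.

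Genes for the cytoplasmic adaptors of integrins moved both ways. Of 13 matched adaptors 5 were higher and 2 lower on day 1 (median 0.25), and 3 were higher and 2 lower on day 4 (median 0.16). The adaptors called lower made up a share near that of all genes, 14.6% on day 1 and 12.1% on day 4. Fermt2, the kindlin of most tissues, was 1.74-fold higher on day 1 and 1.43-fold on day 4. Fermt1, the kindlin of epidermis, had log2 changes of -0.63 and -0.68 (limma adjusted p = 0.0332 and 0.0287). Talin gene Tln1 was 1.58-fold and 1.44-fold higher, and Lims1, the PINCH adaptor, 1.42-fold and 1.43-fold. Paxillin gene Pxn was higher on day 1 (log2 change 0.47, limma adjusted p = 0.0102), and the actinin gene Actn4 was lower on both days at -0.47 and -0.36.

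Ligands in the wound matrix gave 4 higher of 8 matched genes on day 1 (median 0.38) and 3 on day 4 (median 0.54), with 0 lower. Tnc, tenascin C, was 3.34-fold higher on day 1 and 3.13-fold on day 4, and Tgfb1, whose latent product αvβ6 can activate, 1.64-fold and 1.74-fold. Thbs1 was 1.8-fold higher on day 1 and 1.91-fold lower on day 4 than on day 1 (log2 change -0.93, limma adjusted p = 0.0223). Vtn was 1.35-fold higher on day 1 (limma adjusted p = 0.0482), and Col3a1 was 1.76-fold higher on day 4 (limma adjusted p = 0.00967). Fn1, the ligand of α5β1, changed by 0.11 on day 1 and 0.49 on day 4 on the log2 scale without a call (limma adjusted p = 0.655 and 0.0718).

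**Figure D4:**
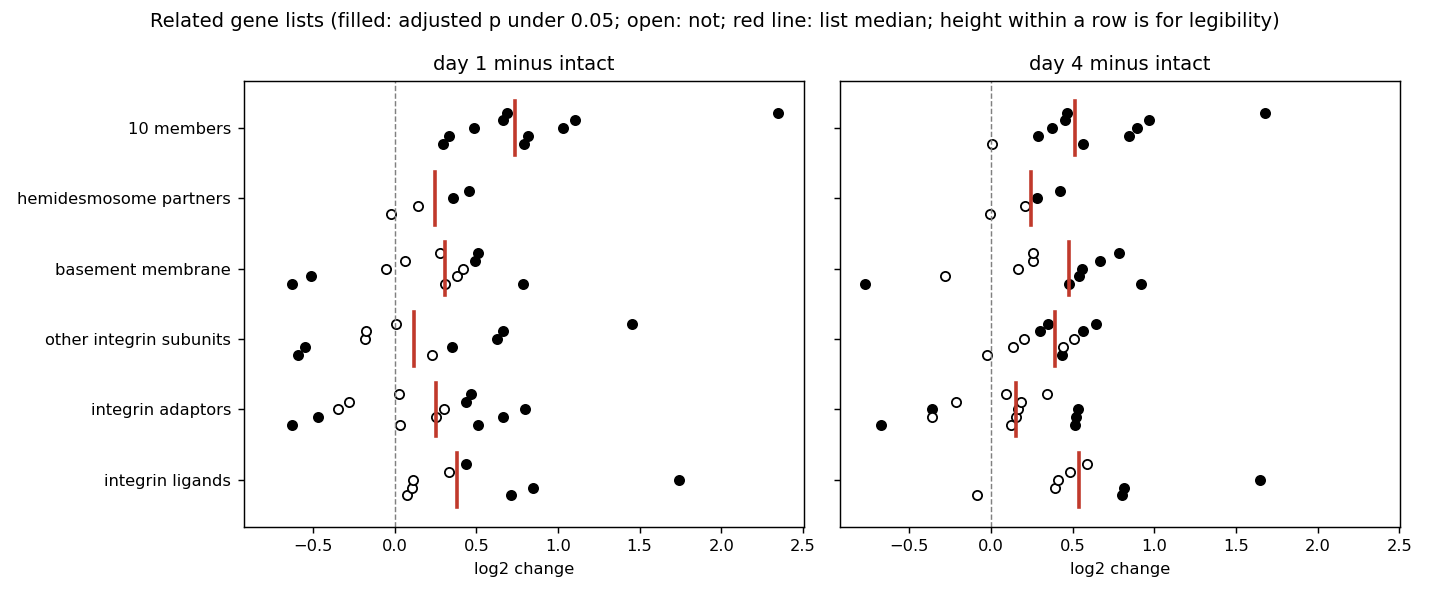
Log2 change of each member and of each matched gene of 5 related lists (horizontal axes) for day 1 and day 4 wounds minus intact skin. Filled points passed an adjusted p of 0.05 and red lines are medians: the members' median is 0.74 on day 1 and 0.52 on day 4, and adaptor and basement membrane genes lie on both sides of 0.

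Markers of the cell types in a biopsy are given here as intensities summed over a list on each array, in linear units. For 6 basal keratinocyte markers the sums were 17149 to 19086 in day 1 wounds and 18530 to 19031 in day 4 wounds, against 16955 to 17801 in intact skin. These sums weigh the brightest probe sets most. The median log2 change of the list was -0.035 on day 1 and -0.0375 on day 4, close to that of all genes. On each day 1 of the 6, Krt14, was called higher and 1, Cdh3, lower. Krt5, the partner keratin of Krt14, changed by 0.03 and 0.04. Within an array Itga6 minus Krt5 lay 0.97 and 1.19 above its intact mean on day 1 and 0.88 and 0.97 above it on day 4, and Itgb4 minus Krt5 lay 0.40 and 0.53 and then 0.23 and 0.28 above it. On day 4 the Itgb4 difference did not hold against every basal marker. Krt14 had log2 changes of 0.37 on day 1 and 0.60 on day 4 (limma adjusted p = 0.0188 and 0.00364), and Itgb4 had 0.49 and 0.29. Itga6, with log2 changes of 1.11 and 0.97, changed more than each of the 6 basal markers on both days. Of 4 wound-edge keratins 3 were called higher on each day, with a list median of 2.27 on day 1 and 2.52 on day 4. Their sums were 14468 to 15311 on day 1 and 16706 to 17793 on day 4, against 7085 to 7846 in intact skin. Krt17, the one not called, stood at 12.54 in intact skin and weighs most in the intact sums. The 4 matched markers of differentiated epidermis had 2 higher and 1 lower on each day, with sums of 16944 to 17704 and 18302 to 20280, against 15253 to 15503.

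Cell types that carry some of these integrins outside the epidermis moved in the same biopsies. Fibroblast markers were called higher for 4 of 5 genes on day 1 and 5 of 5 on day 4, with sums of 11120 to 12883 and 12849 to 13872, against 7544 to 7630 in intact skin. Of 5 endothelial markers 4 were called higher on each day, with sums of 2698 to 2983 and 2210 to 2767, against 1513 to 1642. All 6 neutrophil and all 6 macrophage markers were higher on both days. Neutrophil sums were 11544 to 15305 on day 1 and 5994 to 7134 on day 4, against 396 to 476 in intact skin, and macrophage sums were 10672 to 11911 and 10650 to 11305, against 2147 to 2974. Of 8 leukocyte integrin genes 7 were called higher on each day, with sums of 2640 to 3177 and 2067 to 2504, against 713 to 836. Itgam rose by 3.15 on the log2 scale on day 1 and Itgb2, its partner, by 2.61. The part of these cells in the changes of Itga5, Itgb1, Itga6 and Itga2 was not tested.

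The remaining marker lists moved less evenly. Skeletal muscle makes Itga7 and long products of Dst. Its markers were called higher for 5 of 6 genes on day 1 and 3 of 6 on day 4. Their sums were 15868 to 16179 and 11744 to 13284, against 9598 to 9853 in intact skin. Of 3 matched Schwann cell markers 2 were called higher on each day, with sums of 509 to 540 and 490 to 549, against 398 to 399. The 4 platelet markers summed to 3183 to 5238 and 2337 to 3346, against 561 to 724, with 2 called higher on each day. Smooth muscle markers had 1 of 5 higher on day 1 and 3 of 5 on day 4 (2670 to 2792 and 3282 to 3324, against 2523 to 2791), and T cell markers 2 of 5 on each day (762 to 814 and 695 to 790, against 477 to 510). Hair follicle markers had 6 of 8 lower on day 1 and 3 of 8 on day 4, and their sums split the replicates. They were 5969 and 645 on day 1 replicates 1 and 2 and 14355 and 828 on day 4 replicates 1 and 2, against 32710 and 33382 in intact skin. A value on this scale does not show that a marker was detected. Intact means of Mmp8 (4.53), Cd3d (5.00) and Cdh19 (5.21) lay below the arrays' lower quartiles of 5.29 to 5.37. Cdh19 is among the Schwann cell markers called higher, while Sox10 was not called on either day. The part of these tissues in the members' changes was not tested.

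The genes whose values lay nearest to a member over the 6 arrays were found by the root mean square difference after each gene was centred on its own mean. Other members and genes with provisional names, such as Gm numbers, were left out of this search. This measure describes likeness over 6 arrays that share groups. For Itga5 they were Il4ra (0.07 log2 units) and Gda (0.08), with day 1 changes of 2.28 and 2.49. Itga6 lay nearest to Rap1b and Mpp1, Itgb1 to Cotl1 and Pla2g15, and Lamb3 to Uhrf2 and Rassf2. The nearest to Itgb6 were Daxx (0.08) and Slco2a1 (0.09), with changes of 0.96 and 1.00 on day 1 and 0.29 and 0.27 on day 4. Itga3 lay nearest to Tnfrsf12a and Tfe3, Itga2 to Slc25a28 and Slc39a1, Itgb4 to Ipmk and Rsbn1, Dst to Gmip and Rbpms, and Lama3 to Cenpi and Ppp3ca. Among the members themselves Itgb1 and Lamb3 were the closest pair, at 0.04 log2 units.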

How the data were processed

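Skin biopsy RNA was measured on Affymetrix gene arrays. The deposited table gives a log2 intensity for each probe set. RMA is the tool named in the submitters' processing notes, and values are rounded to 2 decimals; version and settings are not given in the sources used here. Of 35556 probe sets, 21789 carried a single symbol in the array annotation; for genes with several, the brightest over the 6 arrays was kept, which gave 19938 genes. Groups were fitted with limma 3.58.1 in R 4.3.3 (a mean per group, eBayes default prior, 3 residual and 3.4 prior degrees of freedom). The p-values were two-sided and Benjamini-Hochberg adjusted over all genes, with a threshold of 0.05. The fit was tested on simulated data. An exact permutation test of 2 against 2 arrays cannot go below p = 0.333 and was not used.

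The members and lists were chosen with earlier results of these data known. Of 129 list genes 121 were matched. Named list genes are, in each comparison, up to 4 per list with the smallest p among those called, and those moving against the list. Pxn on day 1 and Itgb5 on day 4 were called but lie outside this rule. Cd151, Col7a1, Fn1, Itgav, Itgb5 and Itgb8 on day 1, and the single marker genes were named after their values were seen. Promoter sequences are from RefSeq (GRCm38.p6). Alternatives were 3 scalings, 2 priors, only the arrays compared, removal of the dimmest 30%, mean probe sets, a replicate block and leaving out each array.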

Additional observations from a re-analysis of the deposited data

Results flagged for a closer look

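For Itgb6 the log2 difference day 4 minus day 1 was called at -0.66 (limma adjusted p = 0.0303), lower in both day 4 arrays than in both day 1 arrays. The call was lost when any 1 array was left out, with log2 changes between -0.74 and -0.57. With only the 2 groups compared it was lost too (limma adjusted p = 0.0933). Itga5 had a difference of -0.67 that was not called (limma adjusted p = 0.101). Itgb6 is the member for which this difference of effects passed. Groups of 2 arrays are too small for a test for single arrays that stand apart.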

How the results depend on the processing

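Over 15 alternatives the 30 member results (10 genes, 3 comparisons) kept direction and side of the threshold in 408 of 450 cases, lost the call in 34, gained it in 1 and turned sign in 7. Itga5, Itga6, Itgb1 and Lamb3 kept their calls against intact skin on both days under all of them, as did Itgb4, Itgb6 and Dst on day 1 and Lama3 on day 4. The turned signs were of values near 0: Itga3 on day 4 was -0.0362 under quantile normalization, -0.0111 under cyclic loess and -0.015 under median centring, and -0.045 to 0.055 with an array left out; Itgb1 on day 4 against day 1 was -0.0063 under cyclic loess and -0.04 to 0.10 with an array left out. With only the 2 groups compared, day 4 against day 1 gave 8 genes higher, 9 lower and 0 members, and the calls of Itga3 on day 1 and Itgb4 on day 4 were also lost (adjusted p = 0.0543 and 0.0576). That setting has fewer residual degrees of freedom. With 1 array left out, the calls were 1773 to 2901 genes higher and 1376 to 2772 lower on day 1, 1393 to 2760 and 853 to 2147 on day 4, and 4 to 67 and 5 to 117 between the days. Members called numbered 7 to 9 on day 1, 5 to 8 on day 4 and 0 to 0 between the days, and the F test called 2396 to 5229 genes and 5 to 9 members. A lone array is assumed to vary like the other groups.

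The replicate block used the numbers in the titles, which are not stated to mark a shared animal or day. Deviations of same-numbered arrays correlated at 0.6853 between the wound days, 0.0139 between day 1 and intact and 0.0227 between day 4 and intact. The block gave 348 genes lower on day 4 than on day 1 and 2 members lower, Itgb6 and Itga5 (Itga5 adjusted p = 0.0225), and changed no other member call. Signal was not tested against background, but every member lay above the arrays' lower quartile of 5.29 to 5.37 on all arrays.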
